A study of Mus musculus with 4 samples.

Results

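Uromodulin (Umod) and epidermal growth factor (Egf) are secreted products of the distal nephron, and they were followed here with 4 further genes, Kng2, Wfdc15b, Defb1 and Sostdc1, in single-cell RNA-Seq of whole mouse kidneys. The 6 genes were taken by symbol from the 32285 genes counted, and each symbol matched 1 identifier. Their level was read in the cells that make them, which were chosen by transporter RNA (at least 5 UMIs of Slc12a1 for the thick limb, at least 5 UMIs of Slc12a3 for the distal convoluted tubule), and as free RNA in podocytes, endothelial cells and immune cells. A UMI is 1 counted RNA molecule. The 4 libraries came from kidneys of male C3H/HeJ mice aged 18 weeks. WT-ND were SGLT2 WT mice on normal diet, and WT-HFD were WT mice given a high-fat diet with 60% of calories from fat from 10 weeks of age for 8 weeks. SP-ND and SP-HFD were Sweet Pee mice, which carry a missense mutation of Slc5a2, the gene of the glucose cotransporter SGLT2, on the same diets. The mutation is germline, so thick limb cells carry it as well. Counts per gene do not show a changed codon, so the genotype label was not checked from them. C3H/HeJ mice of both genotypes also carry a defective Tlr4, the endotoxin receptor. There was 1 library per condition, and the number of animals in a library is not given in the sources used here. No test between conditions was therefore possible, and all intervals below are exact 95% intervals that cover counting error only. Where 4 values stand in a row they are in the order WT on ND, WT on HFD, SP on ND, SP on HFD.

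The thick ascending limb reabsorbs salt without water through the cotransporter NKCC2, the product of Slc12a1, and the distal convoluted tubule that follows it does so through NCC, the product of Slc12a3. Uromodulin is a membrane-anchored glycoprotein of the thick limb that is cleaved into the urine, where its filaments bind bacteria, and it is the most abundant protein of normal urine. EGF is made as a long membrane precursor by the thick limb and the distal convoluted tubule, and the freed peptide acts on the EGF receptor and on magnesium uptake through TRPM6. Kng2 encodes a kininogen, the precursor that kallikreins cut into kinins. Wfdc15b belongs to the family of small secreted WAP-domain proteins, and Defb1 encodes beta-defensin 1, an antimicrobial peptide of epithelia. Sostdc1 encodes a secreted antagonist of BMP and WNT ligands.

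In RefSeq (GRCm38.p6, the build that matches mm10), Umod (ENSMUSG00000030963) lies on chromosome 7 from 119462708 to 119479262 and Egf (ENSMUSG00000028017) on chromosome 3 from 129677574 to 129755322, both on the minus strand. Kng2 (ENSMUSG00000060459) lies on chromosome 16 from 22985852 to 23029101, and Wfdc15b (ENSMUSG00000018211) on chromosome 2 from 164214454 to 164221663, also on the minus strand. Defb1 (ENSMUSG00000044748) lies on chromosome 8 from 21776555 to 21795185 and Sostdc1 (ENSMUSG00000036169) on chromosome 12 from 36314169 to 36318452, on the plus strand. Start regions were matched for 4 of the 6 genes. Those of Umod, Egf and Wfdc15b are shown, since these genes had the most alike levels over cell classes (below). Each run is the 200 bases from 250 to 51 bases before the RefSeq start, 5′ to 3′ on the strand of the gene.
Umod, chr7:119479313-119479512, minus strand: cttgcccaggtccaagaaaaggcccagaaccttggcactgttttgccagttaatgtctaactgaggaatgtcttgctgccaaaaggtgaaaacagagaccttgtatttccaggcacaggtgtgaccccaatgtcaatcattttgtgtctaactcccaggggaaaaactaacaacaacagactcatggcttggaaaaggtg
Egf, chr3:129755373-129755572, minus strand: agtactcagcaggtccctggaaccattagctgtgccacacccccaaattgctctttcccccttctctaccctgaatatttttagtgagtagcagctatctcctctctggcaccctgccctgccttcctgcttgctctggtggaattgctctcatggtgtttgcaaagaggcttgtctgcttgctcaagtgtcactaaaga
Wfdc15b, chr2:164221714-164221913, minus strand: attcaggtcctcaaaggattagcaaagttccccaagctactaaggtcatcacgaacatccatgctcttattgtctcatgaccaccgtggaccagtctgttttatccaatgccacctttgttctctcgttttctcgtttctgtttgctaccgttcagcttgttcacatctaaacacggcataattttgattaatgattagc

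The libraries held 13229 to 16385 barcodes and 90728590 to 115117649 UMIs, and 32280 cells were kept. Any pair of libraries shared 54 to 77 barcodes, at most 0.522% of the smaller. The thick limb gate took 1043, 1079, 1115 and 1045 cells of WT (ND, HFD) and SP (ND, HFD), with median depths of 5244, 7743, 8833 and 6811 UMIs. The distal gate took 784, 778, 588 and 649 cells. Markers fixed for the thick limb, which include Slc12a1, Cldn10 and Cldn16, made up 0.584% to 0.796% of UMIs in its gate, against 0.00813% to 0.0141% outside the tubule. WT-HFD stood apart: 26.5% of its thick limb cells and 45.6% of its distal cells were rich in markers of another class, mostly of the proximal tubule (17.0% and 29.8%), against 5.20% to 8.53% and 5.39% to 9.18% in the other libraries. In WT-HFD 166 cells passed both gates, against 17 to 31 elsewhere, and these were left out. Each comparison with WT-HFD is therefore given also without cells rich in other markers and with the gate gene held to at least 0.1% of the UMIs of a cell, which removed 149 thick limb and 164 distal cells of WT-HFD. Whether these barcodes hold RNA of more than 1 cell or cells that express both sets of genes was not tested, nor was their part in a difference beyond those values.

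Umod was highest in the thick limb of all 4 libraries, at 12632 and 13478 CPM (its UMIs as a share of all UMIs of the cells, on the usual CPM scale) in WT on ND and HFD and at 10250 and 14792 CPM in SP. The distal convoluted tubule held 1815, 2917, 1751 and 4221 CPM, and intercalated cells, the acid-base cells of the collecting duct, 323, 768, 320.04 and 656 CPM. Levels in the other 6 cell classes ran from 91.4 to 303 CPM and overlapped between classes. The ranges over libraries of these 3 leading classes did not overlap each other, so the order thick limb, distal convoluted tubule, intercalated cell held in every library. Egf was at 7885, 5263, 4900.2 and 6351 CPM in the thick limb and at 3396, 2966, 3102 and 4360.2 CPM in the distal convoluted tubule, ranges that again did not overlap. Both genes were thus at their highest in the thick limb, but the distal tubule held a larger part of the Egf level than of the Umod level. In the 7 other classes Egf ran from 41.4 to 203 CPM.

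The other 4 genes differed in where they were highest. Wfdc15b followed Umod, with 1973, 2698, 1679 and 2808 CPM in the thick limb and 841, 1132, 747 and 1426 CPM in the distal convoluted tubule. Kng2 was at 997, 993, 935 and 1233 CPM in the thick limb and at 963, 837, 902 and 1301 CPM in the distal convoluted tubule, and these 2 ranges overlapped. Its near-identical paralog Kng1 was at 3.30 to 5.27 CPM in the thick limb, and reads shared by both could be lost or split in counting. Sostdc1 was at 562, 356, 626 and 519 CPM in the thick limb and 182, 165, 203 and 272 CPM in the distal convoluted tubule. Defb1 went the other way along the nephron, with 231, 459, 268 and 381 CPM in the thick limb but 2626, 2494, 3500 and 3422 CPM in the distal convoluted tubule. Principal cells, the water- and sodium-handling cells of the collecting duct, held 2259, 2067, 2789 and 2126 CPM of Defb1, a range that overlapped that of the distal convoluted tubule.

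**Figure D1:**
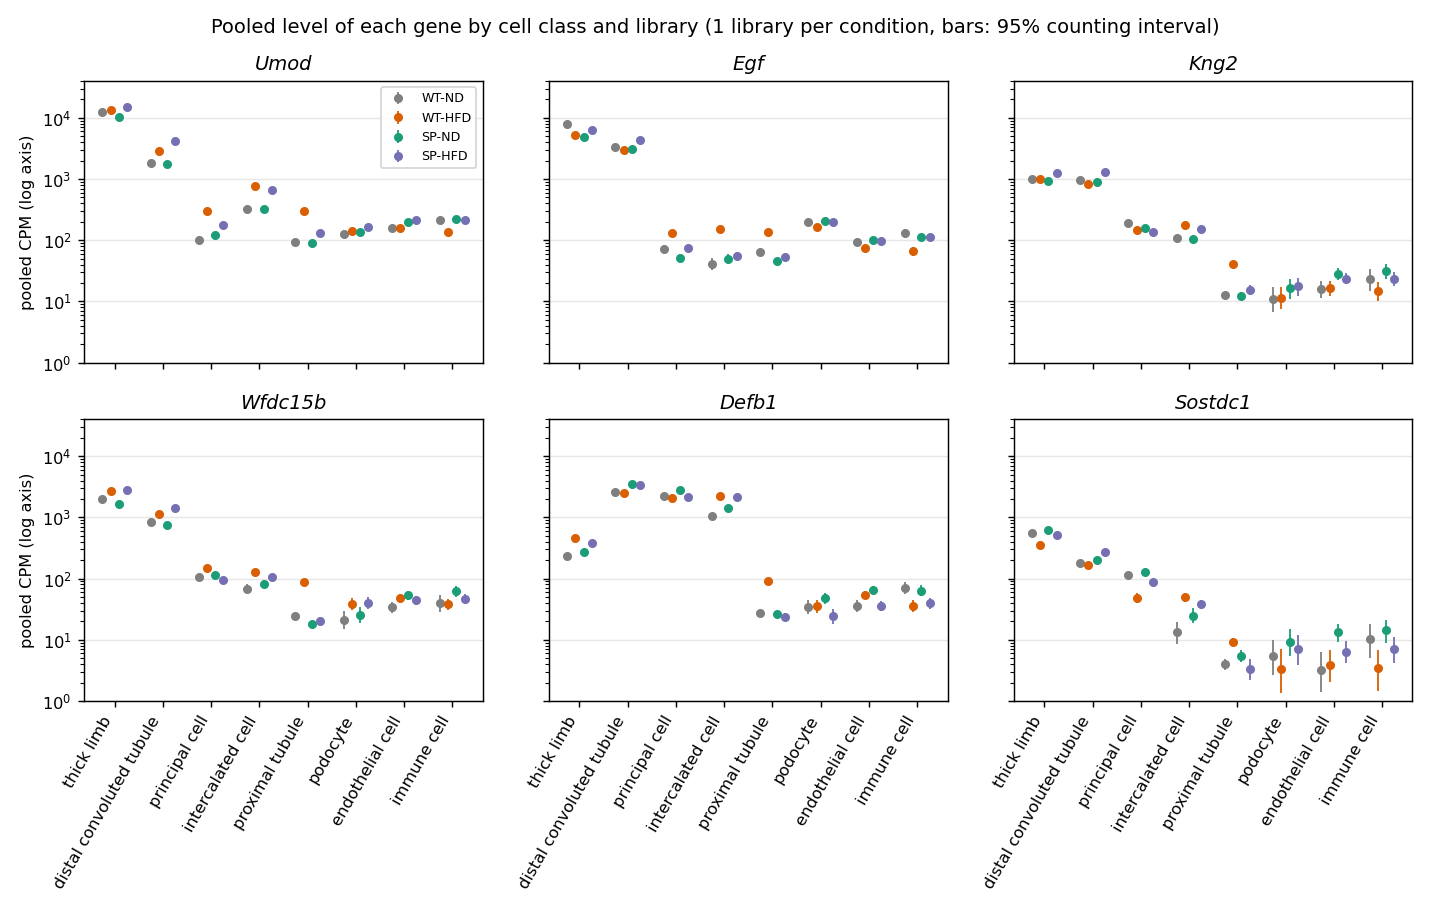
Pooled level of each of the 6 genes (CPM, log axis) in 8 cell classes, with 1 point per library and bars for the 95% counting interval. Umod, Egf, Wfdc15b, Kng2 and Sostdc1 sit highest in the thick limb and distal convoluted tubule, while Defb1 sits lower in the thick limb (231 to 459 CPM) than in the distal convoluted tubule, principal and intercalated cells (1067 to 3500 CPM).

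With 1 library a group, a gene was counted as different where the libraries were at least 1.5-fold apart, among genes with at least 50 CPM in 1 of both. In the thick limb, HFD against ND in WT put 2 of the 6 genes past that fold (Defb1 higher, Sostdc1 lower), beside 7.35% of 2312 genes. In SP the diet comparison put 1 of 6 past it (Wfdc15b, higher), beside 5.39% of 2356 genes. Genotype on ND gave 1 of 6 (Egf, lower in SP-ND), beside 2.81% of 2240 genes, and genotype on HFD gave none of the 6, beside 4.57% of 2341 genes. The median log2 ratio over all of these genes lay between 0.02 and 0.12, and over the 6 genes at 0.04, 0.45, -0.16 and 0.20 in the same order. Most of the 6 genes in the thick limb thus lay within 1.5-fold between libraries. Egf in WT, 0.667-fold on HFD, and Sostdc1 on HFD, 1.46-fold higher in SP, lay just inside that limit, and Egf on ND (0.621-fold in SP) and Sostdc1 in WT (0.634-fold on HFD) just outside it. Under the stricter choices of cells the log2 ratio of Sostdc1 on HFD, SP over WT, was 0.30 and 0.34, against 0.54 in all gated cells.

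Umod in the thick limb was 1.44-fold higher in SP-HFD than in SP-ND, a log2 ratio of 0.53 (0.52 to 0.54), and 0.41 to 0.55 over 13 other ways to choose, scale or pool the cells. In WT the log2 ratio of HFD over ND was 0.09 (0.08 to 0.11), and 0.34 without the cells rich in other markers or 0.30 with the stricter gate, but -0.12 with the cells that pass both gates kept. On ND, Umod was lower in SP than in WT, with a log2 ratio of -0.30 (-0.31 to -0.29). On HFD the ratio of SP over WT was 0.13 (0.12 to 0.15), but it turned to -0.12 and -0.08 under the 2 stricter choices of cells. No sign can therefore be given for Umod for diet in WT or for genotype on HFD. In each of these comparisons the libraries were less than 1.5-fold apart.

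Egf in the thick limb was lower in WT-HFD than in WT-ND by a log2 ratio of -0.58 (-0.60 to -0.57), which was -0.33 without the cells rich in other markers and -0.37 with the stricter gate. In SP the diet ratio was 0.37 (0.36 to 0.39). WT-ND held the highest level of the 4 libraries and SP-ND the lowest, a log2 ratio of -0.69 (-0.70 to -0.67) that was -0.72 to -0.58 over the same 13 other settings. The 2 HFD libraries were close, with a ratio of SP over WT of 0.27 (0.25 to 0.29) in all gated cells and of 0.02 and 0.05 under the stricter choices. Relative to Umod in the same cells, there were 62.4 and 39.0 Egf UMIs per 100 Umod UMIs in WT on ND and HFD, and 47.8 and 42.9 in SP. WT-ND thus stood above the other libraries in this ratio, which is not touched by the total UMIs of the cells.

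Among the host-defence genes, Wfdc15b was higher on HFD in both genotypes, with log2 ratios of 0.45 (0.42 to 0.48) in WT and 0.74 (0.71 to 0.77) in SP. Leaving out cells rich in other markers moved the WT value to 0.67, past 1.5-fold, and left that of SP at 0.74. Defb1, at its low thick limb level, was also higher on HFD in both, at 0.99 (0.90 to 1.08) in WT and 0.51 (0.43 to 0.59) in SP, with 0.96 and 0.44 without those cells. Genotype moved both less, with ratios of SP over WT of -0.23 and 0.06 for Wfdc15b and 0.21 and -0.27 for Defb1 on ND and HFD. Under the stricter choices of cells the HFD ratio was -0.17 and -0.14 for Wfdc15b, and -0.23 and -0.26 for Defb1. No sign can therefore be given for Wfdc15b for genotype on HFD. In the thick limb all diet ratios of these 2 genes were above 0 under all 15 other settings tried in both genotypes. Free Defb1 RNA outside the tubule came to 8.95% to 22.1% of the thick limb level, and the settings tried include its subtraction. Cells rich in other markers were not chosen by distal markers. These made up 0.00789% and 0.0178% of thick limb UMIs in WT-ND and WT-HFD, and 0.00650% and 0.00729% in SP-ND and SP-HFD. The part of distal RNA in the thick limb Defb1 level was not tested.

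Kng2 in the thick limb had a diet ratio of -0.01 (-0.05 to 0.04) in WT, which was 0.20 and 0.17 under the stricter choices of cells and -0.17 with the cells that pass both gates kept, and of 0.40 (0.36 to 0.44) in SP. Its genotype ratio on ND was -0.09, and -0.12 to 0.04 over the 13 other settings, so no sign can be given for it. On HFD the genotype ratio of Kng2 was 0.31. It was 0.10 without cells rich in other markers and -0.09 when scaled to Slc12a1. Sostdc1 was lower on HFD in both genotypes, by a log2 ratio of -0.66 (-0.73 to -0.59) in WT and of -0.27 (-0.33 to -0.21) in SP. The WT value came to -0.43 and -0.46 under the stricter choices, inside 1.5-fold. The gate gene Slc12a1 was itself lower in WT-HFD (3610.2 CPM) than in WT-ND (5830.5), SP-ND (5317.5) and SP-HFD (4761), a WT diet ratio of -0.69. Without cells rich in other markers it was at 6016 CPM in WT-ND and 4395 CPM in WT-HFD. With the stricter gate it was at 5971 and 4270 CPM. Both pairs were less than 1.5-fold apart. Beside the Slc12a1 ratio of -0.69, that of Umod was 0.09 and that of Wfdc15b 0.45, and the median over 20 thick limb genes was -0.13, or 0.04 with the stricter gate.

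**Figure D2:**
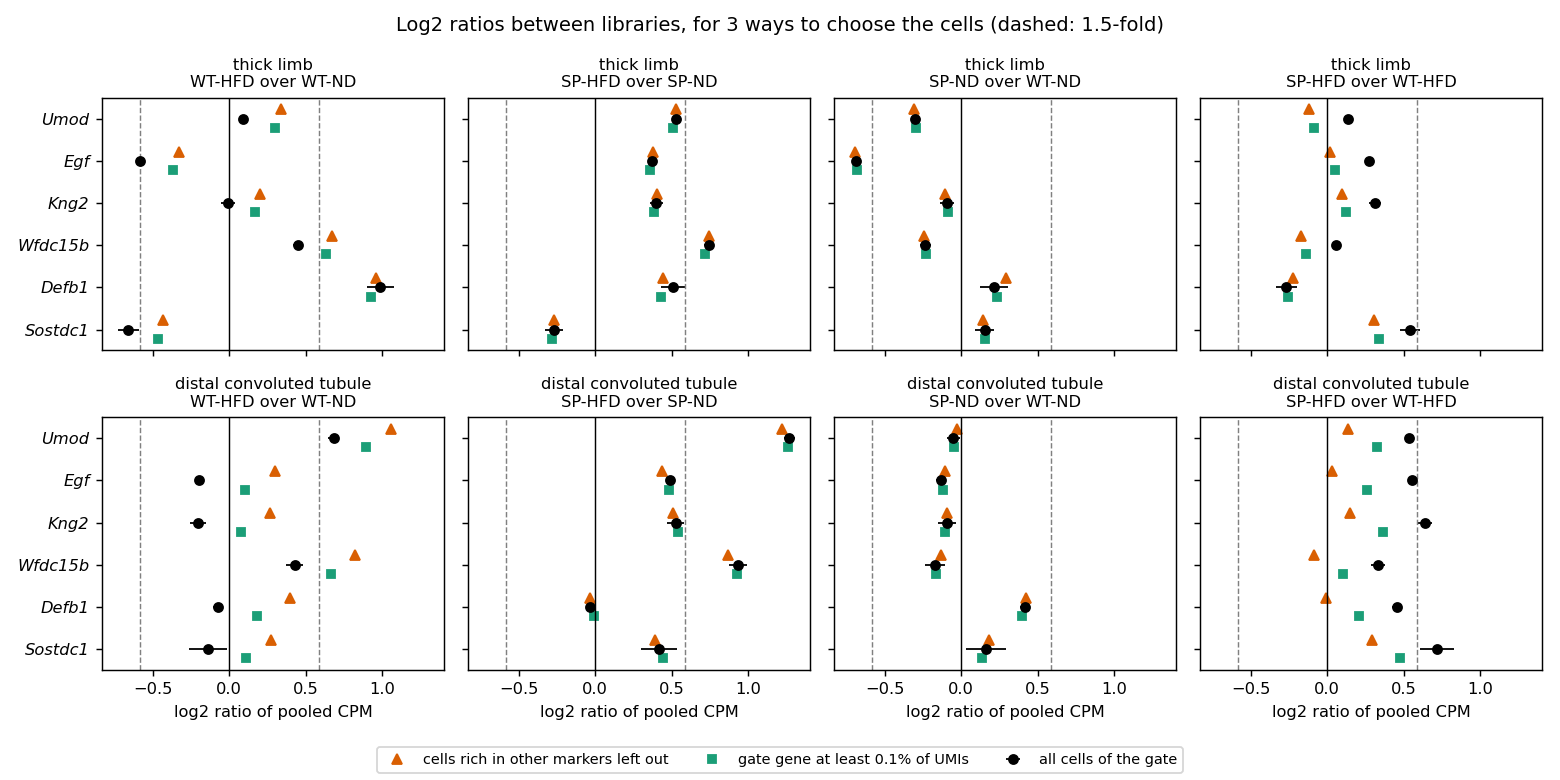
Log2 ratio of pooled CPM for the 6 genes in the thick limb (top) and the distal convoluted tubule (bottom) for the 4 comparisons, with circles and 95% counting intervals for all gated cells, triangles without cells rich in other markers and squares with the gate gene at 0.1% of UMIs or more. The 3 symbols lie together where WT-HFD is not involved. Where it is, they lie apart for most genes, as for Egf in the distal convoluted tubule on HFD over ND in WT (-0.20, 0.30 and 0.10). For Defb1 in the thick limb they lie together there too (0.99, 0.96 and 0.93 on HFD over ND in WT).

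The distal convoluted tubule gave larger differences for Umod than the thick limb, except between genotypes on ND (log2 ratios of -0.05 against -0.30). In WT, 1 of 6 genes (Umod) was past 1.5-fold between diets, beside 15.1% of 2339 genes, a comparison that involves the library with the most cells rich in other markers. In SP 2 of 6 (Umod and Wfdc15b) were past it, beside 5.34% of 2305 genes. Genotype gave none of 6 on ND, beside 1.99% of 2163 genes, and 2 of 6 on HFD (Kng2 and Sostdc1), beside 11.1% of 2385 genes. Of these distal differences, only those of Umod and Wfdc15b in SP do not involve WT-HFD.

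Umod in distal cells was 2.41-fold higher in SP-HFD than in SP-ND, a log2 ratio of 1.27 (1.23 to 1.31) that lay between 0.97 and 1.36 over the 13 other settings. In WT the ratio was 0.68 (0.65 to 0.72), and 1.06 and 0.89 under the stricter choices of cells. Both genotypes on ND were at nearly the same level (1815 and 1751 CPM, ratio -0.05). Wfdc15b had diet ratios of 0.93 (0.88 to 0.99) in SP and 0.43 (0.37 to 0.48) in WT, the latter 0.82 without cells rich in other markers. In both genotypes the 2 genes were thus higher on HFD in the distal gate under each of the 15 other settings tried. Slc12a1 in these cells was at 33.7, 101, 52.6 and 29.2 CPM in WT (ND, HFD) and SP (ND, HFD). Outside the tubule it was at 41.8, 29.4, 67.3 and 44.4 CPM. The distal gate leaves out cells with at least 5 UMIs of Slc12a1, so its level there cannot measure thick limb RNA. The part of such RNA in the distal Umod level was not tested.

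The diet ratios of the other genes in distal cells of WT changed sign with the cells chosen. Egf had a ratio of -0.20 (-0.22 to -0.17) in WT, which became 0.30 and 0.10 under the stricter choices, and of 0.49 (0.46 to 0.52) in SP. Kng2 had -0.20 (-0.26 to -0.15) in WT, turning to 0.27 and 0.08, and 0.53 (0.47 to 0.58) in SP. Sostdc1 had -0.14 (-0.26 to -0.01) in WT, turning to 0.28 and 0.11, and 0.42 (0.30 to 0.54) in SP. No sign can be given for these 3 genes in WT distal cells. Defb1 had diet log2 ratios of -0.07 in WT (0.40 and 0.19 under the stricter choices) and -0.03 in SP, and was higher in SP-ND than in WT-ND by 0.41 (0.38 to 0.45). On HFD, the ratios of SP over WT were 0.64 for Kng2 and 0.72 for Sostdc1, but 0.15 and 0.29 without cells rich in other markers.

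Within the thick limb gate the members did not spread evenly. Cells were split, after their values were known, by Cldn10 and Cldn16, claudins that mark sodium-permeable and magnesium-permeable stretches of the thick limb. Cells with at least 2 UMIs of Cldn16 and none of Cldn10 numbered 63, 73, 104 and 94 in WT (ND, HFD) and SP (ND, HFD), and cells with Cldn10 and no Cldn16 numbered 433, 536, 467 and 456. Egf was at 12136, 9696, 9157 and 9735 CPM in the Cldn16 cells and at 5264, 2599, 2779 and 3966 CPM in the Cldn10 cells. Sostdc1 was likewise at 1022, 795, 1124 and 879 CPM against 441, 294, 472 and 416 CPM. Both genes were higher in the Cldn16 cells of every library, with no overlap between the 2 kinds of cell. The same held for Kng2, at 1388, 1525, 1307 and 1554.5 CPM against 864, 787, 838 and 1063 CPM. Umod overlapped, at 12249, 16733, 9886 and 11491 CPM in the Cldn16 cells and 11899, 9539.9, 8705 and 14845 CPM in the Cldn10 cells. Cells with at least 2 UMIs of each claudin numbered 76, 107, 152 and 134. They held more Umod than either of these kinds in every library, at 17408, 24989, 13627 and 16973 CPM. Their median depths were also higher, at 9368.5, 11553, 11820 and 10650 UMIs. The Egf difference between the ND libraries was present in the Cldn16 cells and in the Cldn10 cells.

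The thick limb gate also held 14, 6, 6 and 9 cells with at least 2 UMIs of Nos1, the nitric oxide synthase of the macula densa, the sensor plaque at the end of the thick limb. These cells held 2893, 3514, 1040.3 and 932 CPM of Umod and 516, 234, 50.7 and 152 CPM of Wfdc15b, below the other gated cells of each library. Slc12a1 in them was at 7010, 6559, 6318 and 4642 CPM, against 5793, 3599, 5309 and 4765 CPM in the gated cells with no Nos1 UMI, so it was higher in 3 libraries and lower in SP-HFD. With 6 to 14 cells a library these values rest on few cells.

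In the distal gate, 86.9% to 90.8% of cells held at least 2 UMIs of Pvalb, which marks the early part of this segment, and 38 to 61 cells a library held none. Cells with Pvalb held 1975, 3113, 1966 and 4475 CPM of Umod in WT (ND, HFD) and SP (ND, HFD), and cells without it 201, 796, 285 and 269 CPM. Egf showed the same split, at 3725, 3211, 3490.0 and 4586 CPM against 507, 411, 359 and 629 CPM, and so did Wfdc15b, at 846 to 1515 CPM against 54.5 to 219 CPM. The distal levels of these 3 genes were thus those of cells with Pvalb, and the diet difference of Umod in SP was present within them. In the whole gate Pvalb had a diet log2 ratio of 0.78 in SP, while Calb1 and Slc8a1, markers of the later part, had -0.64 and -0.63. Within the cells with Pvalb, Pvalb was at 2296 CPM in SP-ND and 3674 CPM in SP-HFD. Calb1 was at 3288 and 2204 CPM in these cells and Slc8a1 at 1806 and 1252 CPM. Whether the gated cells shifted along the segment was not tested. The part of these marker differences in the Umod difference was not tested beyond the split.

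**Figure D3:**
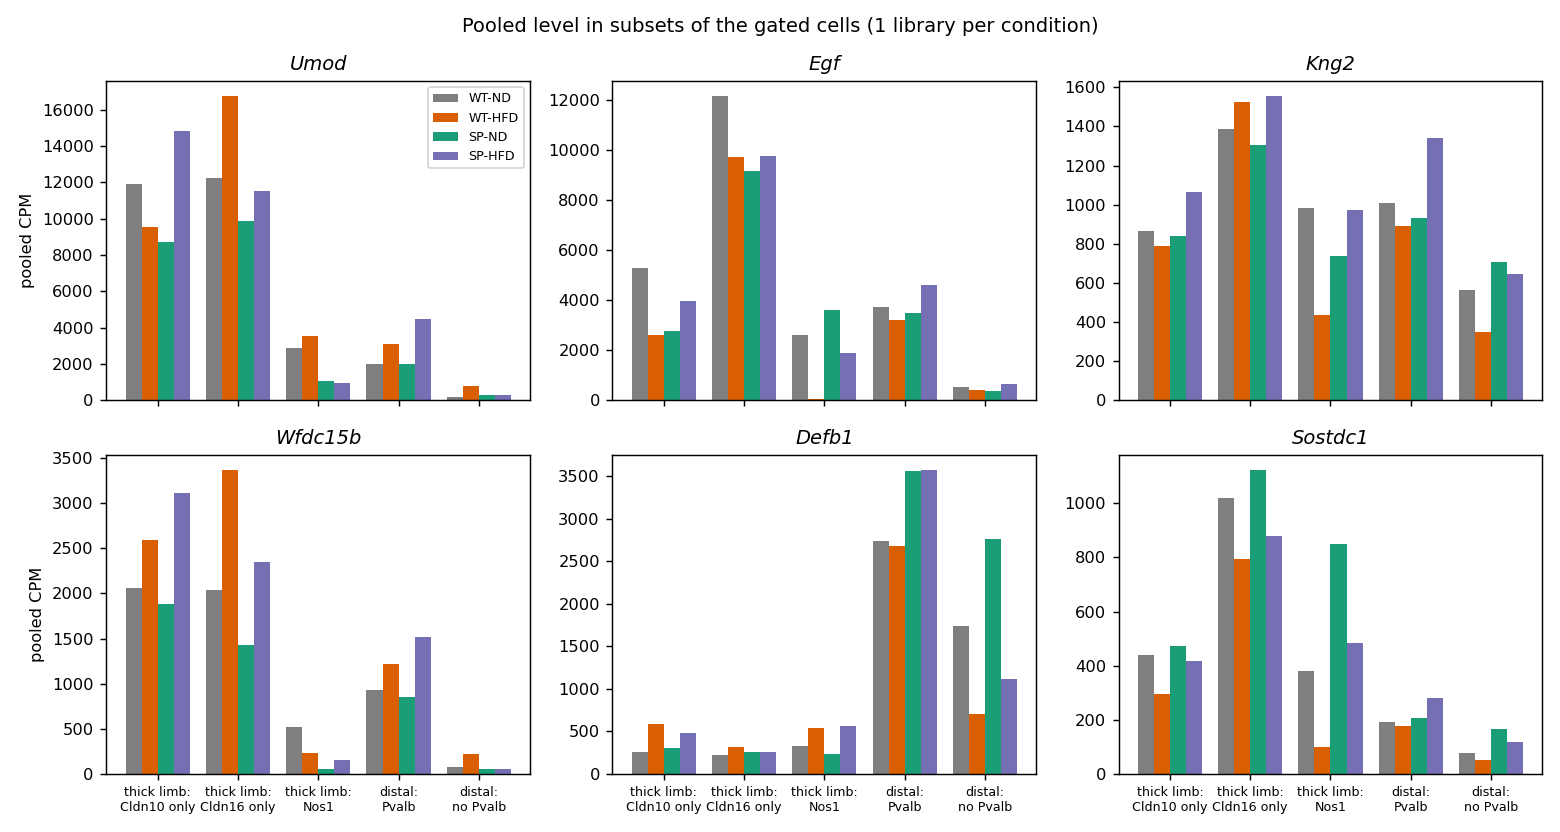
Pooled CPM of the 6 genes in subsets of the gated cells (thick limb cells with Cldn10 or Cldn16 only or with Nos1, distal cells with or without Pvalb), 1 bar per library. Egf, Sostdc1 and Kng2 are higher in Cldn16 than in Cldn10 cells of every library, and Umod, Egf and Wfdc15b are low in distal cells without Pvalb.

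Levels were also read in single cells of the thick limb, not thinned, so their spread includes counting noise. In WT-ND the cell at the 10th percentile held 2004 CPM of Umod, the median cell 11194 and the cell at the 90th percentile 24686. The medians of WT-HFD, SP-ND and SP-HFD were 8644, 8395 and 13131 CPM. For Egf the medians were 6852, 2629.5, 3304 and 5396 CPM in WT (ND, HFD) and SP (ND, HFD), and the 90th over the 10th percentile came to 23.8, 31.5, 37.2 and 19.2. In WT-HFD the median Umod cell lay below that of WT-ND although the pooled level was higher. Its cell at the 90th percentile held 30147 CPM, and pooling also gives deeper cells more weight. The part of each in the pooled level was not tested. With every cell thinned to 1000 UMIs, the Spearman correlation of Umod with Egf over thick limb cells was 0.35 to 0.56 and with Wfdc15b 0.31 to 0.47, while Egf with Wfdc15b gave -0.04 to 0.21. The cells share a library and a fixed depth, so these are descriptions.

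**Figure D4:**
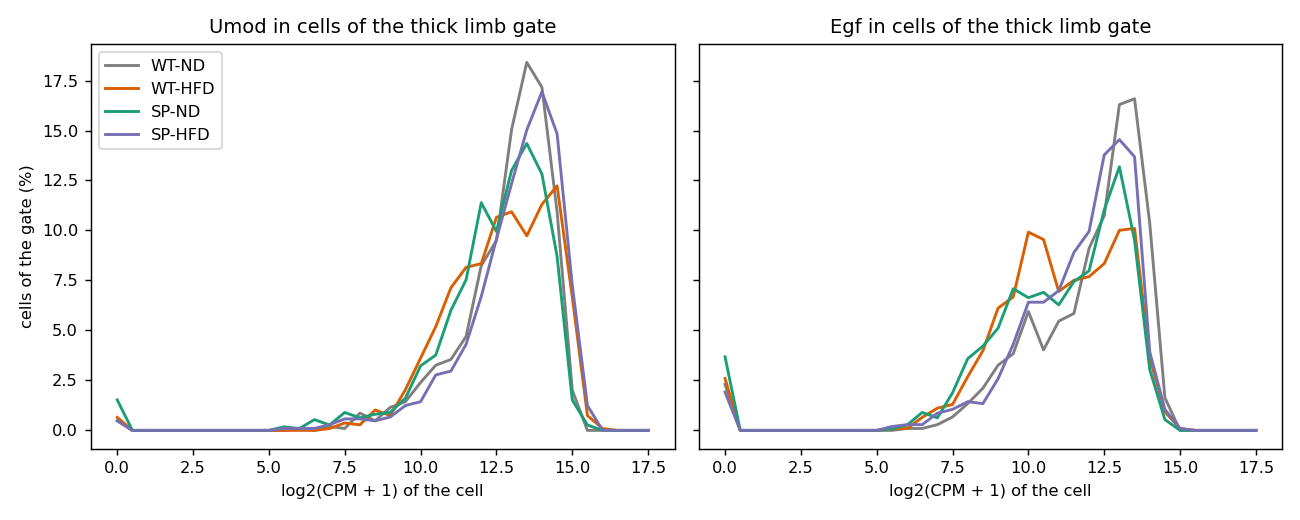
Distribution over cells of the thick limb gate of Umod (left) and Egf (right), as the percent of cells in each step of log2(CPM + 1), 1 line per library. At 10 on this scale, a low part of the Egf distribution, lie 9.92% of the cells of WT-HFD and 5.94% of those of WT-ND, while Umod lies mostly above 12 in each library.

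The 6 genes were also read in cells outside these segments. In podocytes, endothelial cells and immune cells together, which should lack it and whose UMIs of it are called free RNA here, Umod was at 159, 148, 185 and 203 CPM in WT (ND, HFD) and SP (ND, HFD), which is 1.10% to 1.81% of the thick limb level. Among 189 to 235 genes at least 10-fold higher in a source gate than outside the tubule, Umod ranked between 3rd and 6th by its level outside. Sostdc1 was the least abundant there, at 3.60 to 12.4 CPM. Umod as free RNA did not follow its source: WT-HFD had the lowest free level and SP-ND the lowest thick limb level. In proximal tubule cells Umod was at 93.1, 296, 91.4 and 132 CPM, so WT-HFD stood at 2.20% of its thick limb level against 0.737% to 0.895% in the other libraries. The other 5 genes were also highest there in WT-HFD, as Egf at 137, Kng2 at 41.0, Wfdc15b at 87.0 and Defb1 at 92.0 CPM.

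A single pool of free RNA keeps its genes in 1 ratio in every cell type, and this held in part. Per 100 Umod UMIs there were 59.3, 46.5, 52.3 and 45.7 Egf UMIs in endothelial cells and 60.5, 48.6, 50.6 and 51.1 in immune cells, close to the thick limb. Podocytes held 152, 115, 148 and 120 Egf UMIs per 100 Umod UMIs. Egf in podocytes was at 195 (175 to 216), 164 (147 to 183), 203 (183 to 225) and 200.35 (181 to 221) CPM, above the endothelial 93.3 (81.6 to 106), 74.8 (65.4 to 85.1), 103 (91.0 to 115) and 96.4 (86.7 to 107) in every library. Umod in podocytes, at 128 to 167 CPM, was below the endothelial 157 to 211 CPM of the same library. Egf, and not Umod, was thus higher in podocytes than the free RNA of the other cells outside the tubule. Thick limb markers made up 0.00602% to 0.00912% of podocyte UMIs, against 0.01002% to 0.0163% in endothelial cells, and distal markers 0.00333% to 0.00495% against 0.00546% to 0.00785%. Defb1 took 8.56% to 15.3% of the UMIs of the 6 genes in endothelial cells against 0.952% to 1.97% in the thick limb and 22.8% to 34.3% in the distal convoluted tubule.

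**Figure D5:**
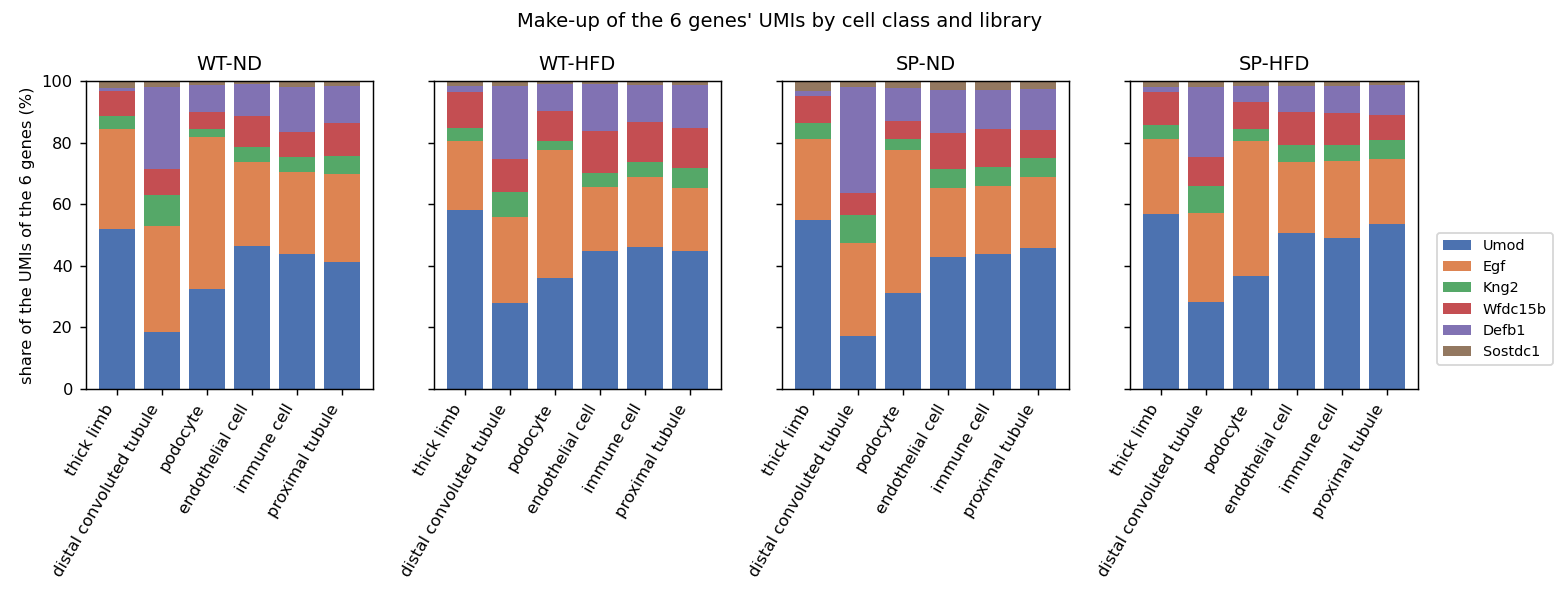
Share of the UMIs of the 6 genes (%) taken by each gene in 6 cell classes, 1 panel per library. Umod takes 41.2% to 53.5% in endothelial, immune and proximal tubule cells, while podocytes have a larger Egf share (41.5% to 49.3%) and the distal convoluted tubule a larger Defb1 share (22.8% to 34.3%).

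The share of cells with a UMI was compared at equal depth. After thinning to 1000 UMIs, Umod was detected in 96.1%, 94.5%, 92.0% and 95.4% of thick limb cells of WT (ND, HFD) and SP (ND, HFD), leaving out 16 to 25 shallower cells a library. Immune cells, which should lack Umod, gave 18.8%, 17.4%, 21.2% and 22.5%, and unthinned they gave 37.8% to 53.7% at median depths of 2333 to 4024 UMIs, against 98.5% to 99.5% of thick limb cells. Egf was detected after thinning in 88.7%, 80.2%, 80.6% and 88.2% of thick limb cells and in 81.4%, 74.0%, 77.1% and 88.0% of distal cells, against 8.18% to 14.1% of immune cells. Both genes were thus far above the background share in their source cells, and the detected share of Egf was lower in WT-HFD and SP-ND, as was its level. Umod in distal cells was detected in 57.8%, 68.8%, 53.1% and 67.0%.

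Outside these 2 gates, Defb1 in intercalated cells was at 1067 (1023 to 1112) CPM in WT-ND and 2238 (2180 to 2298) in WT-HFD, while SP had 1409 (1358 to 1461) on ND and 2142 (2093 to 2191) on HFD. Both HFD libraries lay above both ND libraries, as they did in these cells for Umod, Egf, Kng2, Wfdc15b and Sostdc1. Egf there ran from 41.4 to 152 CPM, against 96.8 to 135 CPM as free RNA outside the tubule. In WT-HFD 12.7% of intercalated cells were rich in principal cell markers, against 5.62% to 6.71% in the other libraries. Cells that passed a gate were left out of this class. With diet, principal cells went the other way for Defb1. Its level there was 2067 (2009 to 2127) CPM for WT-HFD and 2125.5 (2071.5 to 2180.5) CPM for SP-HFD. WT-ND, at 2259 (2199 to 2320.5) CPM, and SP-ND, at 2789 (2728 to 2851) CPM, both lay above these levels.

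The partners of the 6 genes were read from lists of their pathways. Of 15 EGF ligands, receptors and proteases, 3 or 4 reached 50 CPM in the thick limb, and Egf was the highest of these. Erbb4, an EGF family receptor, was at 146, 99.5, 114 and 134 CPM in WT (ND, HFD) and SP (ND, HFD), the same order of libraries as Egf except for WT-HFD and SP-ND. Hbegf, the heparin-binding ligand, was at 129, 130, 139 and 134 CPM and so moved little. Egfr, the receptor of EGF, was at 10.1 to 13.1 CPM there and at 21.9 to 29.1 CPM in the proximal tubule. Past 1.5-fold were Errfi1, an inhibitor of the receptor, in the WT diet comparison (log2 ratio 0.98) and, on HFD, SP over WT (-0.63), both with the WT-HFD library.

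Of 10 kallikrein and kinin genes, 3 reached the level in each gate (Kng2, Klk1 and Mme). Klk1, the tissue kallikrein that cuts kininogen, was at 500, 366, 874 and 1114 CPM in the thick limb and 999, 472, 2489 and 1628 CPM in the distal convoluted tubule of WT (ND, HFD) and SP (ND, HFD). It was higher in SP than in WT on both diets in both gates, with log2 ratios of 0.80 and 1.61 in the thick limb and 1.32 and 1.79 in the distal convoluted tubule on ND and HFD. With the stricter gate these were 0.81, 1.48, 1.09 and 1.81. Distal cells with at least 2 UMIs of Pvalb held 692, 358, 1125 and 1208 CPM of Klk1. The few distal cells without Pvalb held 4228, 1938, 12681 and 8483 CPM, so they weigh on the Klk1 level of the whole gate. Kng2 itself differed between genotypes by at most 0.64. The receptor Bdkrb2 was at 1.92 to 6.38 CPM in the thick limb.

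Of 11 host-defence genes, 6 or 7 reached the level in the thick limb. Their median diet log2 ratio was 0.09 in WT, with 1 higher (Defb1) and 1 lower (Pigr, -0.75), and 0.50 in SP, with 1 higher (Wfdc15b), beside medians over all genes of 0.04 and 0.12. Wfdc2, a relative of Wfdc15b, was at 1846, 1925, 1753 and 2456 CPM in WT (ND, HFD) and SP (ND, HFD), a diet ratio of 0.49 in SP. Spp1, osteopontin, was at 2664, 2616, 3656 and 3284 CPM with genotype log2 ratios of 0.46 on ND and 0.33 on HFD. Tlr4 was at 0.160 to 0.390 CPM. The list holds 3 of the 6 genes (Umod, Defb1 and Wfdc15b).

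Of 16 BMP and WNT genes, 4 reached the level in the thick limb (Sostdc1, Lrp6, Bmpr2 and Bmp4), with median diet log2 ratios of -0.34 in WT and -0.25 in SP, and Sostdc1 alone was past 1.5-fold. Lrp6, a WNT coreceptor, was at 161, 131, 177 and 147 CPM and Bmpr2, a BMP receptor, at 62.9, 49.0, 62.5 and 53.2 CPM in WT (ND, HFD) and SP (ND, HFD), so both were lower on HFD, as Sostdc1 was, but within 1.5-fold. Bmp7, a ligand that Sostdc1 binds, was at 33.0 to 40.1 CPM there and at 123 to 174 CPM in podocytes.

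Of 22 thick limb transport and identity genes, 20 reached the level. In the WT diet comparison 1 was past 1.5-fold (Slc12a1, -0.69), with a median of -0.13 in all gated cells and 0.04 with the stricter gate. Slc12a1 lay inside 1.5-fold under both stricter choices of cells. In SP 1 was past it (Irx2, a homeobox factor, 0.66), with a median of 0.08. On ND none was past it between genotypes, and on HFD 2 were higher in SP (Irx2 0.61, Cldn16 0.59), which came to 0.41 and 0.35 with the stricter gate. Of 17 genes of the distal convoluted tubule, 15 reached the level in its gate. For diet 5 of these were lower in WT (Klk1, Slc8a1, Calb1 and Wnk1 furthest, -1.08 to -0.70). The WT median was -0.42 in all gated cells and -0.14 with the stricter gate. In SP 1 was higher (Pvalb) and 3 were lower (Calb1, Slc8a1 and Klk1, the last at -0.61 and at -0.33 with the stricter gate). In distal cells with Pvalb, Klk1 was at 1125 CPM in SP-ND and 1208 CPM in SP-HFD, so it was not lower there. Dissociation and stress genes moved with the libraries too. In the thick limb 3 of 11 were higher in WT-HFD than in WT-ND (median 0.28), and 1 was higher (Ier3) and 4 lower in SP-HFD than in SP-ND (median -0.21), with Egr1 at -2.00. Between genotypes, 2 of 10 were higher in SP on ND (median 0.11) and 5 of 11 lower in SP on HFD (median -0.53). In distal cells 9 of 12 were higher in WT-HFD than in WT-ND (median 0.66), and 2 of 9 were higher in SP-HFD than in SP-ND (median 0.08). The part of these genes in the values of the 6 genes was not tested.

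Over 9 cell classes in 4 libraries (36 points), the 5 genes most like Umod by Pearson correlation of log2(CPM + 1), among 818 genes, included Wfdc15b (0.96), Ppp1r1a, an inhibitor of protein phosphatase 1 (0.94), Egf (0.92) and Gpx6, a glutathione peroxidase (0.91). Kng2 ranked 7th (0.88), Sostdc1 13th (0.83) and Defb1 243rd (0.49). Those most like Egf, among 796 genes, were Ppp1r1a (0.96), Sfrp1, a secreted WNT antagonist (0.94), Umod (0.92), Abca13, a lipid transporter (0.91), and Wfdc15b (0.91). Ppp1r1a was at 925 to 1221 CPM in the thick limb and 663 to 941 CPM in the distal convoluted tubule, and Sfrp1 at 685 to 1174 and 1051 to 1433 CPM. The points share libraries and free RNA, and the gates themselves rest on transporter RNA, so these values describe likeness over cell classes and not over conditions.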

How the data were processed

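Whole kidneys of 4 groups of mice, 1 library each, were profiled with 3′ single-cell RNA-Seq (10x Genomics). The authors deposited UMI counts per gene and barcode, not normalized. The study's supplement describes a correction for ambient RNA with SoupX. The deposited values are whole-number counts and were used here without one. The headers of the count matrices name Cell Ranger 6.1.2, the submitters' processing notes Cell Ranger 2.1.1 and mm10. Cells with 200 to 5000 genes and under 50% mitochondrial UMIs were kept, and doublets scored against simulated ones were removed (0.8% per 1000 cells). Counts were pooled per library and gate and given as CPM with exact Poisson intervals, log2 ratios with exact conditional binomial intervals, and shares with Clopper-Pearson intervals, at 95%. Classes outside the gates needed at least 5 UMIs of 2 or more markers making up 0.3% of UMIs (proximal tubule 0.5%). They also held under 0.15% of the panel of any other of these classes (proximal tubule 0.3%), and under 5 UMIs of each gate gene. Cells with 0.1% of a panel of another of these classes (proximal tubule 0.3%) counted as rich in it. The thick limb and distal panels were not used for this, so no cell was removed by markers of the other gate. These thresholds were set after the shares were seen. Named genes are the 6 genes, up to 4 per list by size of ratio (further list genes were named for their role, after values were seen), and the 5 most like Umod and Egf, 1 of which is not reported here. The 6 genes and the lists were chosen with earlier results of these data known. The ratio and its interval were tested on simulated counts that vary by counting error only. That test does not cover spread between cells or libraries. The tools were scikit-learn 1.9.0, pandas 2.3.3, Matplotlib 3.10.9, SciPy 1.17.1 and NumPy 2.4.6 under Python 3.11.15. No test between conditions was made.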

Additional observations from a re-analysis of the deposited data

Results flagged for a closer look

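For 4 values the diet ratio pointed one way in WT and the other way in SP, each beyond its counting interval; with 1 library per condition the difference between genotypes was not tested. The diet log2 ratio in SP minus that in WT was 0.96 for Egf in thick limb cells (0.37 against -0.58). It was 0.69 for Egf, 0.73 for Kng2 and 0.56 for Sostdc1 in distal convoluted tubule cells. For Egf in the thick limb the WT ratio stayed below 0 without cells rich in other markers (-0.33). Scaled to Slc12a1, which was itself lower in WT-HFD, the Egf ratio was 0.11 in WT and 0.53 in SP, so the directions were not opposite. For the 3 distal values the WT ratio was above 0 once cells rich in markers of another class were left out (0.30, 0.27 and 0.28), so the opposite directions were not seen without those cells.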

How the results depend on the processing

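No paired analysis was possible because each condition had 1 library, and for the same reason leaving out a library gave no value. Over the 48 log2 ratios of the 6 genes (24 in each gate) and 15 other settings, 392 of 720 values stayed within the counting interval of the reported ratio, and 57 had the other sign, over 19 of the 48 ratios. For a ratio reported past 1.5-fold the sign changed 1 time, for Sostdc1 in the thick limb, WT-HFD against WT-ND, at 0.033 once scaled to Slc12a1. That scaling moves the ratio of every gene in the gate by the same amount, the Slc12a1 ratio of -0.69. The gate with the transporter at 0.1% of UMIs and the scaling to the transporter were chosen after the data were seen.

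Of the 6 genes, 2, 1, 1 and 0 were past 1.5-fold in the thick limb and 1, 2, 0 and 2 in distal cells, for diet in WT, diet in SP, genotype on ND and genotype on HFD. The percent of all genes past the same fold under the same setting follows each other count in parentheses. For diet in WT, the thick limb count was 1 with doublets kept (5.97%), with a gate of 10 UMIs (5.37%) and with the gate set after thinning (5.45%), 4 when scaled to Slc12a1 (66.1%) and 0 at 2-fold (2.03%). This count was 3 under 30% mitochondrial UMIs (12.25%), with a gate of 3 UMIs (9.20%), with cells of both gates kept (11.3%) and without mitochondrial genes (7.40%). It was also 3 with the median gene set to 0 (7.35%), as a mean over cells (8.25%) and with free RNA subtracted (25.3%). For diet in SP it was 2 with free RNA subtracted (21.6%), 3 when scaled to Slc12a1 (14.4%) and 0 at 2-fold (1.27%). For genotype on ND it was 0 with doublets kept (4.91%), when scaled (4.02%) and at 2-fold (1.34%). For genotype on HFD it was 1 with a gate of 3 UMIs (6.32%), with cells of both gates kept (8.39%) and when scaled (8.97%). In distal cells, diet in WT gave 2 with the gate set after thinning (8.84%), without cells rich in other markers (5.57%), with the gate at 0.1% of UMIs (8.07%) and when scaled to Slc12a3 (53.4%), and 0 with cells of both gates kept (20.05%), as a mean over cells (18.2%) and at 2-fold (6.41%). Diet in SP gave 5 when scaled (14.7%), 3 under 30% mitochondrial UMIs (10.3%) and 1 at 2-fold (1.61%). Genotype on HFD gave 4 under 30% mitochondrial UMIs (15.4%), 5 with cells of both gates kept (17.5%), and 3 with doublets kept (12.1%) and as a mean over cells (14.9%). It gave 1 with the median gene set to 0 (11.03%), and 0 with a gate of 10 UMIs (6.77%), with the gate after thinning (5.55%), without cells rich in other markers (1.48%), with the gate at 0.1% of UMIs (4.90%), when scaled (24.9%) and at 2-fold (5.95%). The cause was not tested beyond these choices of cells.

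Umod outside the tubule, as a percent of its thick limb level, was 1.26 in WT-ND, where podocytes gave 1.02, immune cells 1.70, doublets kept 1.45 and under 30% mitochondrial UMIs 1.10. For WT-HFD (1.10) endothelial cells gave 1.19, immune cells 1.01, doublets kept 1.29 and the mitochondrial limit 0.831. For SP-ND (1.81) podocytes gave 1.34, immune cells 2.15 and the mitochondrial limit 1.57. For SP-HFD (1.37) podocytes gave 1.13, immune cells 1.47, doublets kept 1.44 and the mitochondrial limit 1.25. Thinned to 500 UMIs, 92.1%, 88.0%, 86.4% and 92.5% of thick limb cells held a Umod UMI in the 4 libraries. With 5244 to 8833 UMIs in the median thick limb cell, the intervals cover counting error only, and the spread between animals is unknown.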
